A study of Mus musculus with 6 samples.

Results

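The BCL2 family is the set of proteins that decides, at the outer membrane of the mitochondrion, whether a cell starts apoptosis. The 10 members described here were chosen by gene symbol, as named genes of the family and with earlier results of these data known, and all 10 were found among the 16403 genes of the deposited count table. They were 3 survival genes (Mcl1, Bcl2 and Bcl2l1), 2 effector genes (Bax and Bak1) and 5 BH3-only genes (Bcl2l11, Bid, Bad, Bbc3 and Pmaip1). All 10 passed the filter on low counts and entered the test.

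RNA was sequenced from bone marrow LSK cells of C57BL/6 mice. LSK cells are the lineage-negative, Sca-1-positive, Kit-positive fraction, a mixture of hematopoietic stem cells and multipotent progenitors. The LIP group had 3 libraries from mice with a ligature placed for 7 days to induce periodontitis. The NL group had 3 libraries from mice without a ligature, and its label does not say whether a sham procedure was done. Each library pooled cells of 3 mice, and no genetic modification is named in the labels, which give neither age nor sex.

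Survival proteins such as MCL-1, BCL-2 and BCL-XL hold the effectors BAX and BAK and the BH3-only proteins in check. BH3-only proteins are the stress sensors of the family: they occupy the survival proteins or activate the effectors, which then open the outer membrane and release cytochrome c. MCL-1 is known to be required for survival of hematopoietic stem cells. Much of the control acts on the proteins and on splice forms, such as the short forms of MCL-1 and BCL-X, which values per gene do not separate.

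Library totals lay between 17780853 and 18841103 counts, and 12564 genes were tested. Pairs of libraries differed by a chi-square per gene of 1.87 to 2.78 within a group and of 7.50 to 13.3 between groups, and the biological coefficient of variation over all genes was 0.0280. The levels of 10 LSK genes differed widely, with Kit at 512 ± 3.73 CPM in NL and 581 ± 9.52 CPM in LIP and Cd34 at 1008 ± 8.68 and 979 ± 17.5 CPM (SD, n = 3 per group). Ly6a, which encodes Sca-1, stood at 38.7 CPM in NL and 37.0 CPM in LIP, and Slamf1, a stem cell marker, was the lowest at 2.75 and 3.06 CPM. CPM are counts relative to the library total, scaled with TMM factors. Markers of more mature cells moved with the groups. Marker genes were counted as higher or lower at an adjusted p below 0.05, which 14.1% and 15.8% of all tested genes met. All 8 tested neutrophil markers were higher in LIP, with a summed level of 216 to 232 CPM in NL and 309 to 330 CPM in LIP, while Ly6g had between 0 and 3 counts. All 6 granulocyte-monocyte progenitor markers were higher, from 6394 to 6419 CPM summed in NL to 7773 to 8164 CPM in LIP, and 4 of 7 B cell markers were, from 59.6 to 62.5 CPM to 75.4 to 77.3 CPM. No marker of these 3 sets was lower, and of 4 tested erythroid markers 2 were lower in LIP. Of the other marker lists, 3 of 10 LSK genes, Kit among them, 3 of 6 T and NK cell genes and 1 of 4 megakaryocyte genes were higher, and of 4 macrophage genes 2 were higher and 1 was lower. Their part in the results below was not tested. In bulk RNA of a mixed fraction, fewer cells of a type and less RNA per cell cannot be told apart.

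Of the 10 members, 1 was higher and 2 were lower in LIP at an adjusted p below 0.05. In all, 29.9% of tested genes were called, 14.1% higher and 15.8% lower, so the members' 3 of 10 is near the share among all genes. The lower members were Bbc3, the gene of PUMA, which fell to 0.749 of its NL level, and Mcl1, which fell to 0.937 of it. The higher one was Bcl2l11, the gene of BIM, at 1.13 times its NL level. The median log2 fold change of the members was 0.013, beside a median of -0.00072 over all tested genes, and the median size of the change was 0.073 beside 0.10. Bbc3 was called in all 18 alternatives, whereas the call of Mcl1 was lost in 6 and that of Bcl2l11 in 8 of 18. Of the 18, 1 is the main fit with a threshold of 0.01, and it is among the losses of both genes.

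**Figure D1:**
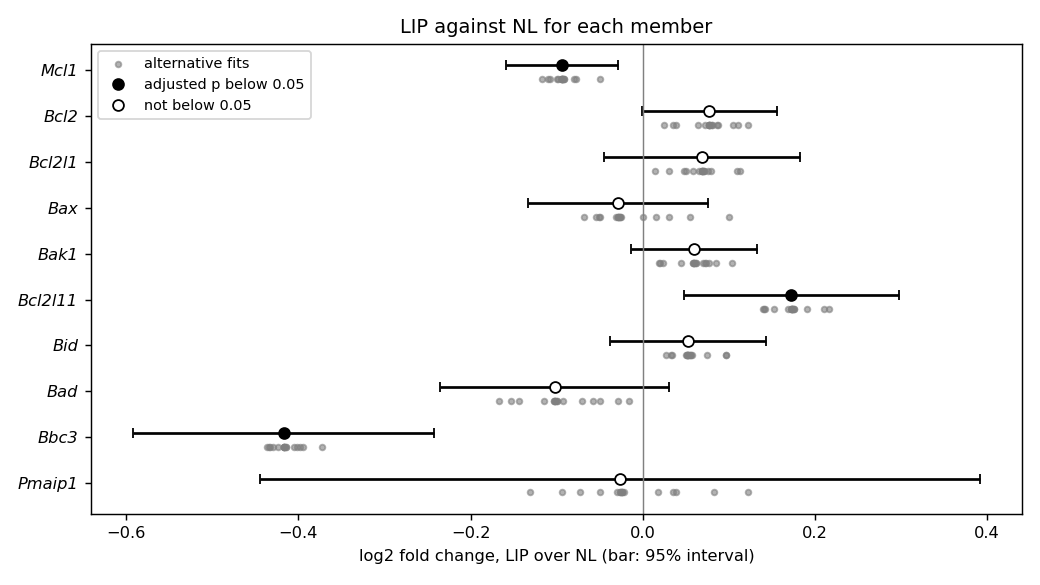
Log2 fold change of each member, LIP over NL (x axis), with its 95% interval. Filled circles mark adjusted p below 0.05, open circles the others, and small grey points are the same change in the alternative fits. The interval of Bbc3 lies farthest from 0, from -0.59 to -0.24.

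The sequences upstream of the 3 called genes are shown because Bbc3 and Bcl2l11, which moved in opposite directions, share the FOXO core there. They are RefSeq sequence on GRCm38.p6, the 250 bases before an annotated start site, 5′ to 3′ on the plus strand, which is the coding strand of all 3 genes. Capitals mark the FOXO core, TGTTTAC or its reverse complement, in Bbc3 and Bcl2l11, and in Mcl1 the GC box, GGGCGGG or its reverse complement. All 3 sequences hold the GC box. In Bbc3, at bases -240 to -234, and in Bcl2l11, at -46 to -40, it is not in capitals. The Bbc3 window is at chr7:16310011-16310260, the Bcl2l11 window at chr2:128125788-128126037 and the Mcl1 window at chr3:95658471-95658720. None of the 3 overlapped an annotated GENCODE M21 exon, and the Bbc3 and Mcl1 windows belong to start sites inside the RefSeq span of the gene.
Bbc3: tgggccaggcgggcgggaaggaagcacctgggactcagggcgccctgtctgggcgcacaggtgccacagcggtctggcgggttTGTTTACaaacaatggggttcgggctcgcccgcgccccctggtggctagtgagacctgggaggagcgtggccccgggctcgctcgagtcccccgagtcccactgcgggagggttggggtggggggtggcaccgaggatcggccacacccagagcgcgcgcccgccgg
Bcl2l11: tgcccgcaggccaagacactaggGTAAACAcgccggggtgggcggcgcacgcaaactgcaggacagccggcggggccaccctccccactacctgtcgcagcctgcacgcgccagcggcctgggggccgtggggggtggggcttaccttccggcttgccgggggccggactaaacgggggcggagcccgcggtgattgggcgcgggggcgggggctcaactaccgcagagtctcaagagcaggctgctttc
Mcl1: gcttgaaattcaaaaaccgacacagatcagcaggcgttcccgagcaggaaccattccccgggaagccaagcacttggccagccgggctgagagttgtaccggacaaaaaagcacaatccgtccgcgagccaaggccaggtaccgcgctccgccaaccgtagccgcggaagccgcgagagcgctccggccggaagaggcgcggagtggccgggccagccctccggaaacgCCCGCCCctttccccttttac

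The table of promoter windows, each reaching from 250 bases before to 50 after a start site, held 15 windows for 9 of the members. FOXO factors are known regulators of BIM and PUMA in growth factor withdrawal. The FOXO core was found in 2 of these 15 windows, 1 of Bcl2l11 at bases -227 to -221 from the start site and 1 of Bbc3 at -167 to -161, and in 3.65% of all 32851 windows. The Bbc3 windows at start sites 16309583 and 16310431, not shown above, held GC boxes but no FOXO core. The GC box, a site of SP factors that is frequent in promoters, was in 9 of the 15 windows, belonging to 7 members, and in 25.6% of all windows. The 15 are not all separate, since the Bbc3 windows at start sites 16310261 and 16310431 overlap and share a GC box. A half-site of p53 was in the Bax window alone, beside 8.36% of all windows, and an E-box (CACGTG) in 2 of the 15, of Bax and Bbc3, beside 7.15%. A pair of heat shock units (GAANNTTC) was in the Bad window, beside 7.86% of all. No member window held the CRE (TGACGTCA), found in 1.79% of all windows, or the STAT motif (TTCNNNGAA), found in 8.3%. Motifs were searched on both strands, and the matches describe letters, not binding.

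Levels of different genes were compared in TPM, the deposited values per transcript length. Bak1 was the most abundant member, with 120, 120 and 115 TPM in NL-1 to NL-3 and 131, 133 and 141 TPM in LIP-1 to LIP-3. Mcl1 came next with 113 to 119 TPM over all libraries, and in NL the ranges of Bak1 and Mcl1 overlapped. They stood at the 91.1 and 90.0 percentiles of tested genes. Bax followed at 90.2 to 105 TPM, Bid at 53.9 to 63.7 TPM and Bad at 36.2 to 43.5 TPM, with no overlap between these neighbours. Bcl2 lay at 26.0 to 32.0 TPM and Bcl2l1 at 18.9 to 22.5 TPM, so Mcl1 made up 70.8% to 71.7% of the summed TPM of the 3 survival genes in NL and 68.1% to 70.0% in LIP. Bbc3 exceeded Bcl2l11 in every NL library, with 11.8 to 12.4 TPM against 7.88 to 8.55 TPM. In LIP they overlapped, at 9.84 to 10.5 TPM for Bbc3 and 9.85 to 10.6 TPM for Bcl2l11. Pmaip1 was lowest at 1.05 to 1.47 TPM, the 8.99 percentile.

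**Figure D2:**
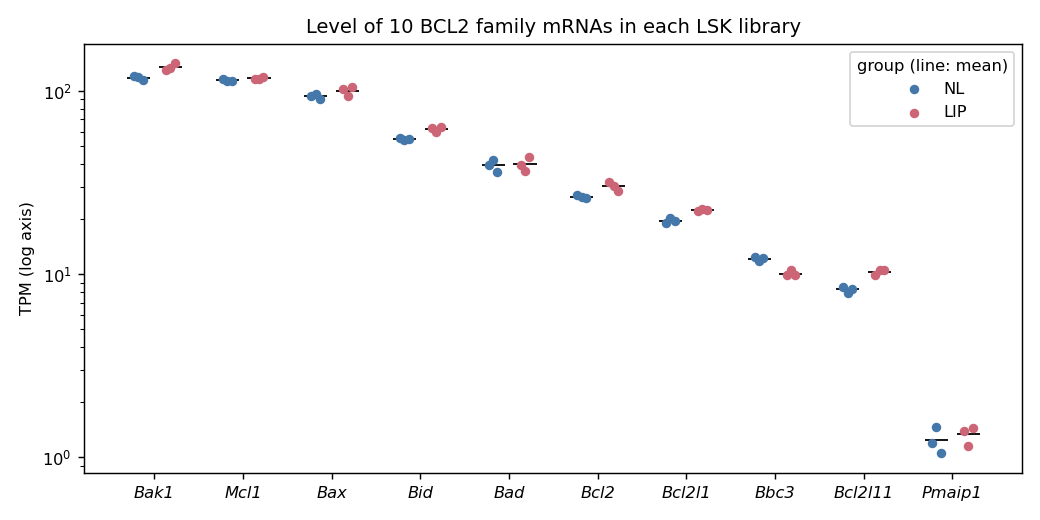
Level of each member in TPM on a log axis, 1 point per library (NL blue, LIP red) with group means as lines, ordered by mean level. The order runs from Bak1 to Pmaip1, and the places of Bbc3 and Bcl2l11 draw together in LIP.

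TPM sets each library to the same sum, and on that scale the median gene was higher in LIP by 0.13 on the log2 scale, while it stood at -0.00097 in TMM-scaled CPM. Changes between groups are therefore given in CPM from here on. The direction of 4 members turned with the scale. Mcl1, Bax, Bad and Pmaip1 were lower in LIP by CPM and stood at 0.035, 0.098, 0.022 and 0.10 on the log2 scale in TPM, each below the 0.13 of the median gene, and of these 4 only Mcl1 passed the test in CPM.

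Mcl1 (gene 17210; chromosome 3, 95656944 to 95663179), whose protein is short-lived, had 241, 237 and 235 CPM in the NL libraries and 223, 218 and 227 CPM in the LIP libraries. All 3 LIP libraries lay below all 3 NL libraries. The log2 fold change was -0.094 ± 0.033 (SE), with an adjusted p of 0.0230, from 238 ± 3.15 to 223 ± 4.66 CPM (SD, n = 3 per group). The call was lost with total counts alone, where the change was -0.049 with an adjusted p of 0.263. It was also lost without NL replicate 1 (adjusted p 0.107), NL replicate 2 (0.0704), LIP replicate 1 (0.0506) or LIP replicate 2 (0.105).

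Bcl2 (gene 12043; chromosome 1, 106538176 to 106714290), the founding survival gene of the family, had 115, 109 and 110 CPM in NL and 124, 116 and 112 CPM in LIP. The groups overlapped, since LIP-3 lay below NL-1. Its log2 fold change was 0.077 ± 0.039 (SE) with an adjusted p of 0.129. It was called higher without LIP replicate 3 (0.11, adjusted p 0.0302) and with total counts alone (0.12, adjusted p 0.0123). Bcl2l1 (gene 12048; chromosome 2, 152758732 to 152833803), the gene of BCL-XL, had 30.0, 32.2 and 29.6 CPM in NL and 31.7, 31.6 and 32.9 CPM in LIP. Its groups overlapped as well, and the change of 0.069 had an adjusted p of 0.392, with an interval of 0.969 to 1.13 in fold.

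The 2 effector genes did not pass the test. Bax (gene 12028; chromosome 7, 45461695 to 45466903) had 45.2, 46.8 and 43.6 CPM in NL and 45.6, 40.7 and 46.7 CPM in LIP, where LIP-2 was the lowest of all 6 libraries. Its fold was 0.980 with a 95% interval of 0.912 to 1.05, an adjusted p of 0.728, and the opposite sign in 5 of 18 alternatives. Bak1 (gene 12018; chromosome 17, 27019812 to 27028627) had 140, 140 and 135 CPM in NL and 141, 139 and 152 CPM in LIP. LIP-3 was the highest, and LIP-2 lay below NL-1 and NL-2. Its fold was 1.04 (0.990 to 1.10), with an adjusted p of 0.233 that became 0.0253 with total counts alone.

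Among BH3-only genes, Bbc3 (gene 170770; chromosome 7, 16308398 to 16318334) encodes PUMA, a target of p53 that binds all survival proteins. It had 13.8, 13.1 and 13.7 CPM in NL and 10.2, 10.3 and 9.88 CPM in LIP. The groups were well apart, at 13.5 ± 0.370 and 10.1 ± 0.227 CPM (SD, n = 3 per group). The log2 fold change was -0.42 ± 0.087 (SE) with an adjusted p of 1.51e-04, a fold of 0.749 with a 95% interval of 0.663 to 0.845. In size this change exceeded that of 94.9% of tested genes, and over 18 alternatives it ranged from -0.44 to -0.37 with adjusted p of at most 0.00555.

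Bcl2l11 (gene 12125; chromosome 2, 128126038 to 128162547) encodes BIM, which limits survival of blood cells when cytokines are withdrawn. Its level was 24.3, 22.0 and 23.2 CPM in NL and 25.4, 26.0 and 26.8 CPM in LIP. The lowest LIP library, LIP-1, lay above the highest NL library, NL-1, by little. The log2 fold change was 0.17 ± 0.062 (SE), with an adjusted p of 0.0293 and a fold of 1.13 (1.03 to 1.23). The call was lost without NL replicate 2 (adjusted p 0.149), NL replicate 3 (0.0643), LIP replicate 2 (0.0620) or LIP replicate 3 (0.0990). It was lost as well with DESeq2 (0.155) and with an offset for transcript length (0.0748). The direction was the same in all 18 alternatives, from 0.14 to 0.22.

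The other 3 BH3-only genes overlapped between groups. Bid (gene 12122; chromosome 6, 120893119 to 120917062), which links death receptors to mitochondria once cut by caspase-8, had 60.6, 60.2 and 60.7 CPM in NL. In LIP it had 64.5, 58.9 and 64.9 CPM, so LIP-2 alone lay below NL, and the change of 0.052 had an adjusted p of 0.416. Bad (gene 12015; chromosome 19, 6941861 to 6951905), which is silenced by growth factor signalling through phosphorylation, had 25.2, 28.2 and 23.8 CPM in NL and 23.6, 22.2 and 26.0 CPM in LIP. Its change was -0.10 with an adjusted p of 0.257 and a fold interval of 0.849 to 1.02. Pmaip1 (gene 58801; chromosome 18, 66458604 to 66465558) encodes NOXA, which binds MCL-1. It had between 29 and 41 counts per library and a fold interval of 0.735 to 1.31, which includes a fall as large as that of Bbc3, so such a change was not detectable at this depth.

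**Figure D3:**
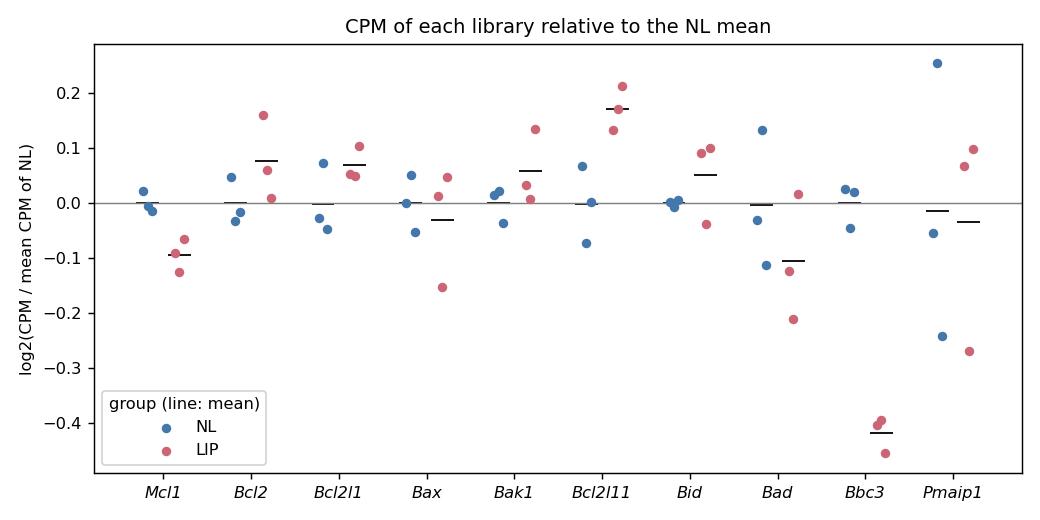
CPM of each library relative to the NL mean of that gene (log2 scale), 1 point per library with group means as lines. The groups are separate for Mcl1, Bcl2l11 and Bbc3 and overlap for the other 7 members.

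Groups did not overlap in 3 of 10 members, and in 40.9% of all tested genes. Members varied among themselves in precision as well as in change, with standard errors from 0.033 for Mcl1 at 4036 to 4349 counts a library to 0.21 for Pmaip1. Counts of Bcl2l1, Bcl2l11 and Bad were not whole in every library. Exons of Bak1, Bid and Bad overlap those of Ggnbp1, Bcl2l13 and Gpr137 on the opposite strand by 614, 628 and 524 bases. Bax shares 192 exon bases with the protein-coding Gm45808 on the same strand. Bcl2 shares 558 with D630008O14Rik, an antisense gene on the opposite strand. Neither Gm45808 nor D630008O14Rik is in the count table. Use of strand in the counting is not stated in the sources used here. Of these neighbours, Bcl2l13 stood at 95.2 CPM in NL and 91.8 CPM in LIP, Gpr137 at 22.7 and 23.5 CPM, and Ggnbp1 at 1.25 and 1.27 CPM, with adjusted p of 0.339, 0.641 and 0.952.

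Ratios of TPM within a library do not depend on how libraries are scaled, and are given without a test because the pairs were set among chosen members. The ratio of Bcl2l11 to Bbc3 was 0.692, 0.667 and 0.679 in the NL libraries and 1.001, 1.001 and 1.07 in the LIP libraries. The mean in LIP was 1.51 times that in NL, and the groups were separate. Each gene alone was already separate between groups in TPM, in opposite directions. The separation of this ratio follows from that and is no further result. Mcl1 to Bcl2l11 was 13.6, 14.4 and 13.6 in NL and 11.7, 11.2 and 11.3 in LIP. Mcl1 to Bak1, a survival gene and an effector its protein binds, was 0.971, 0.947 and 0.983 in NL and 0.886, 0.880 and 0.842 in LIP. Both were lower in every LIP library than in any NL library. Bcl2 to Bax, a ratio often used as a summary of the balance, overlapped between groups, at 0.275 to 0.288 in NL and 0.273 to 0.324 in LIP. The summed TPM of the 3 survival genes over that of the 5 BH3-only genes also overlapped, with 1.36 to 1.41 in NL and 1.32 to 1.43 in LIP.

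**Figure D4:**
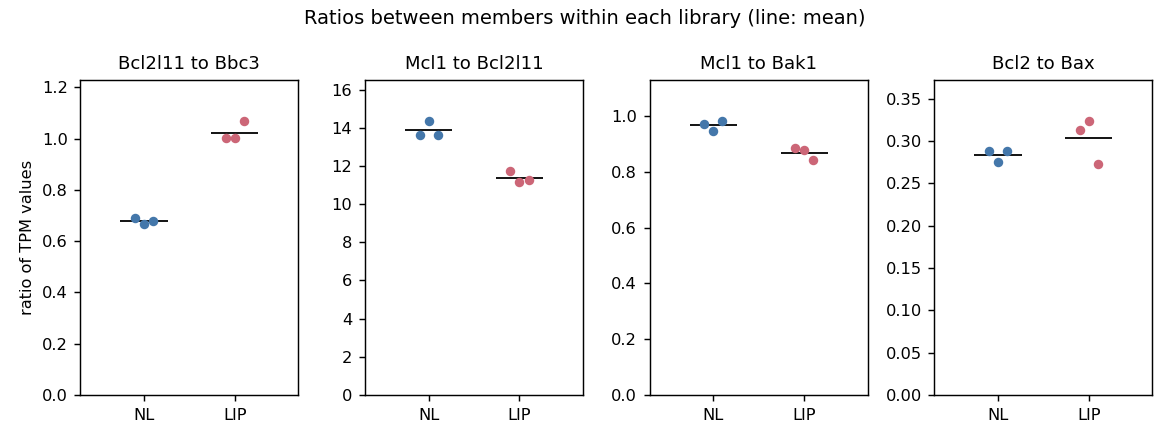
Ratios of TPM between members within each library, 1 point per library with group means as lines, each axis starting at 0. Bcl2l11 to Bbc3 rises from a mean of 0.680 in NL to 1.02 in LIP, which follows from the opposite changes of both genes. The Bcl2 to Bax points of the groups overlap.

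Other genes of the pathway were taken from 7 lists of apoptosis genes, of whose 98 members 90 were tested. In these lists 8 were called higher and 16 lower, 24 in all. Among all tested genes 29.9% were called, 14.1% higher and 15.8% lower. The median log2 fold change of the listed genes was -0.011. Among the remaining BCL2 family genes 1 of 10 tested rose and none fell. This was Bcl2l12, a distant relative reported to restrain effector caspases, at 21.2 ± 2.20 CPM in NL and 25.2 ± 0.570 CPM in LIP (adjusted p 0.00278). NL-2, at 23.6 CPM, came close to the LIP libraries. Of those not called, Bmf, a BH3-only gene, had a log2 fold change of 0.18 (adjusted p 0.163) and was called without NL replicate 1 (0.30, adjusted p 0.0348). With a length offset 2 genes of this list were called lower. The read-sharing copies Bcl2a1a, Bcl2a1b and Bcl2a1d were near the detection limit, at 0.246 to 1.02 CPM in NL and 0.336 to 0.659 CPM in LIP. Bcl2a1a did not enter the test. Bcl2a1b stood at -0.094 (adjusted p 0.879) and Bcl2a1d at -0.80 (adjusted p 0.0640), and neither was called. Bmf and the Bcl2a1 copies were chosen after their values were seen.

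Downstream of the mitochondrion, 3 of 14 apoptosome and caspase genes fell and 1 rose, beside 15.8% and 14.1% of all tested genes. Cycs, the gene of cytochrome c, fell from 150 ± 4.61 to 128 ± 6.33 CPM (adjusted p 2.45e-06), though it lacks whole counts and has many processed copies. Endog, a mitochondrial nuclease, fell by 0.32, a call lost in 6 of 18 alternatives. Apaf1, the scaffold of the apoptosome, rose from 56.4 ± 3.85 to 64.9 ± 0.198 CPM (adjusted p 5.04e-04). With total counts alone 4 genes of this list rose, and 3 did without NL replicate 3. Among all tested genes 2756 rose with total counts alone and 1467 without NL replicate 3, in place of 1776. Of 8 inhibitor of apoptosis genes, Naip2 rose by 0.33 and Xiap, the direct caspase inhibitor, fell by 0.10. Naip2 has close copies that share reads, and the call of Xiap was lost in 9 of 18 alternatives, among them a GC offset, which turned its sign to 0.031. In the death receptor list of 10, the adaptor genes Fadd and Tradd were called in opposite directions, at 0.19 and -0.18, with calls lost in 4 and 7 of 18 alternatives.

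**Figure D5:**
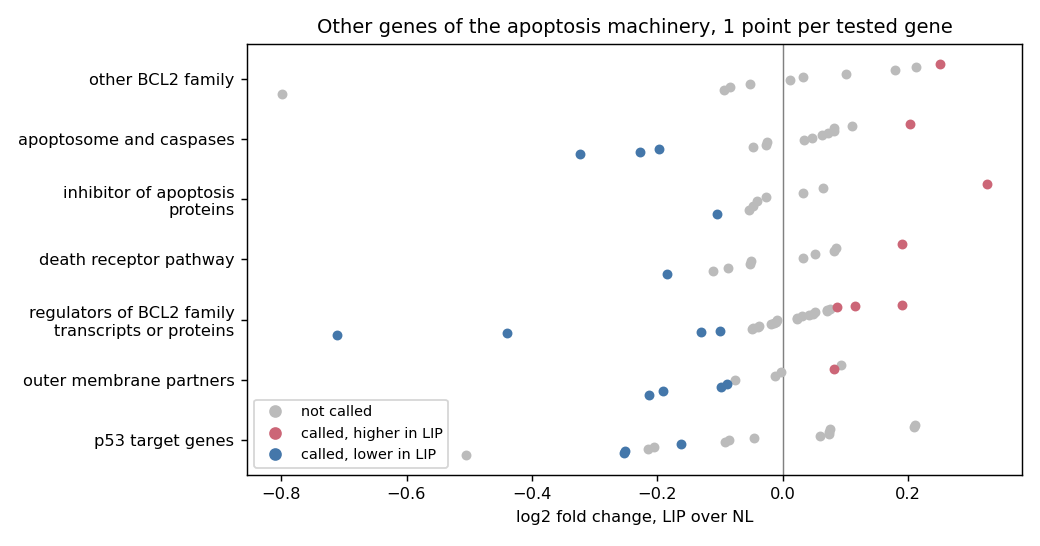
Log2 fold change, LIP over NL (x axis), of every tested gene in the 7 lists of other apoptosis genes, 1 point per gene, coloured by call. Dynll1 at -0.71 is the lowest called gene.

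Of 24 genes that regulate the family or its proteins, 3 rose and 4 fell, beside 14.1% and 15.8% of all tested genes. Dynll1 encodes a dynein light chain that can hold BIM at microtubules. It had 246, 230 and 243 CPM in NL and 152, 144 and 144 CPM in LIP, the largest change among the called genes of these lists at -0.71 ± 0.035 (SE), with an adjusted p of 4.46e-25, although its counts were not whole. Dynll2, the partner of BMF, stood at -0.10, with a call lost in 7 of 18 alternatives. Huwe1, a ubiquitin ligase of MCL-1, rose by 0.19 (adjusted p 3.73e-06). Ddit3, the gene of CHOP, an ER stress factor that can induce BIM and PUMA, fell by 0.44 (adjusted p 5.46e-04), and Creb1 fell by 0.13, a call lost in 3 alternatives. Pim1 rose by 0.12 and Trp53 by 0.087, with calls lost in 3 and 9 of 18 alternatives. Dynll2, Pim1 and Trp53 are named after seeing their values so that each called gene is given. When libraries were scaled by total counts, 9 rose and 2 fell. In that scaling 2756 of all 12564 tested genes rose and 1301 fell, in place of 1776 and 1984. Foxo3, named after its values were seen because of the motif above, had 216, 219 and 224 CPM in NL and 209, 217 and 211 CPM in LIP. Its change of -0.048 had an adjusted p of 0.284, and it was called lower with a length offset, a GC offset or both, at -0.14 in the lowest of these. Foxo1 of the same list, named for the same reason, stood at 21.7 CPM in NL and 21.1 CPM in LIP. Its change of -0.039 had an adjusted p of 0.710. A part of FOXO factors in the changes of Bbc3 and Bcl2l11 was not tested.

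In the outer membrane list 4 of 9 genes fell and 1 rose, beside 15.8% and 14.1% of all tested genes. The channel genes Vdac3, Vdac2 and Vdac1 fell by 0.21, 0.099 and 0.089 and the fission adaptor gene Mff by 0.19. VDAC2 is known to bind BAK. The calls of Vdac1 and Vdac2 were lost in 8 and 7 of 18 alternatives and those of Vdac3 and Mff in 1 and 2, which included a GC offset, and with a length and GC offset 1 gene of the list fell and 2 rose. The gene called higher, Tmbim6, chosen after its values were seen, lost its call in 12 of 18 alternatives. Of 15 p53 target genes outside the family, 3 fell and none rose, beside the same 15.8% and 14.1% of all tested genes. Ccng1 fell by 0.25 (adjusted p 1.58e-07), Trp53inp1 by 0.25 (1.23e-05) and Btg2 by 0.16, a call lost in 6 of 18 alternatives. With a GC offset 5 of these genes fell. The members Bbc3, Bax and Pmaip1, which are p53 targets too, stood at -0.42, -0.029 and -0.026.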

How the data were processed

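Poly(A)-selected libraries of LSK cells were sequenced as 100 bp paired-end reads, 45.0 M on average, per the labels' protocols. The table deposited by the authors held estimated counts, FPKM and TPM per gene and library, per the file headers. The submitters' processing notes list STAR, HTSeq and GRCm38 and give no version or role. The deposited counts were partly not whole (13481 of 16403 genes were whole in all libraries), so they were rounded before the test, as planned for estimated counts. The 6 deposited columns of group means were not used.

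Genes were filtered with filterByExpr, scaled with TMM and tested with edgeR 4.0.16 (R 4.3.3), robust quasi-likelihood, with 1 term, the group. Benjamini-Hochberg adjustment ran over 12564 genes, with a call below 0.05. Standard errors come from the test statistic, and intervals are 95%. The script was tested on simulated data. By library totals alone, before TMM scaling, 3 counts equal 0.159 to 0.169 CPM, a limit that reflects counting error only. P-values set the group difference against the spread between pools of 3 mice. That spread was estimated per gene with information shared across all tested genes.

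Named genes are all members, up to 4 called genes with the smallest p per list, and fixed markers. A called gene of these lists is not reported here by name. Members and lists were chosen with earlier results of these data known. Alternatives were DESeq2 1.42.0, limma-voom (limma 3.58.1), other scalings, filters and thresholds, non-robust estimation, a replicate block, a length offset from FPKM and counts, leaving out each library and, added after seeing the data, GC offsets (GC known for 98.6% of tested genes). The offsets followed lowess trends (span 0.3) fitted outside ribosomal and respiratory chain genes. Positions are from RefSeq on GRCm38.p6.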

Additional observations from a re-analysis of the deposited data

How the results depend on the processing

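Bbc3 kept its direction and call in all 18 alternatives, and Bax, Bcl2l1, Bid, Bad and Pmaip1 were called in none, although Bax and Pmaip1 changed sign in 5 each. With DESeq2, 1091 genes were higher and 1285 lower in LIP in place of 1776 and 1984, 15 in place of 24 genes of the other lists were called, and no member was called higher, with Bcl2l11 at 0.17. Scaling by total counts alone gave 2756 higher and 1301 lower, so 67.9% of calls were higher in place of 47.2%. Then 3 members were higher and 1 lower, with a log2 fold change of -0.049 for Mcl1, Bcl2 at 0.12 and Bak1 at 0.10. At an adjusted p below 0.01, 1148 genes were higher, 13 genes of the other lists were called, and 0 members were higher and 1 lower, since Mcl1 (-0.094) and Bcl2l11 (0.17) were not called. With the length offset no member (0) was higher, with Bcl2l11 at 0.14, and likewise with the length and GC offset, at 0.14. For both offsets and for DESeq2 the cause was not tested. Over the 18 alternatives the counts of higher and lower genes ranged from 1 to 2 and 0 to 2 in the other BCL2 family genes (1 and 0 reported), 1 to 4 and 2 to 3 in the apoptosome list (1 and 3), 0 to 2 lower in the inhibitor list (1), 0 to 2 and 0 to 3 in the death receptor list (1 and 1), 1 to 9 and 2 to 5 among regulators (3 and 4), 0 to 2 and 1 to 4 in the outer membrane list (1 and 4) and 2 to 5 lower among p53 targets (3). The GC offset turned Xiap, to 0.031.

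Without 1 library at a time, 1437 to 1590 genes were higher and 1550 to 1807 lower, 0 to 1 members were higher and 1 to 2 lower, and 16 to 24 genes of the other lists were called. Mcl1 ranged from -0.11 to -0.078, Bcl2 from 0.035 to 0.11 and Bcl2l11 from 0.14 to 0.21.

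Deviations of same-numbered libraries had correlations of 0.028, -0.038 and -0.068 for numbers 1, 2 and 3. Those of differently numbered libraries ran from -0.14 to 0.17. No pairing by number was seen, and a batch shared by libraries was not tested. With a replicate block 1750 genes were higher and 1979 lower, the member counts were 1 and 2, and 23 genes of the other lists were called. In that fit Bbc3 was at -0.42, Mcl1 at -0.094 (adjusted p 0.0266) and Bcl2l11 at 0.17 (adjusted p 0.0296). Depth limits Pmaip1 most.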
